A study of Homo sapiens with 9 samples.

Results

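The genes described here are MYC and the genes of ribosome assembly that it is known to serve, measured in a lymphoblastoid cell line during exposure to sulforaphane. A list of 44 genes was drawn up with earlier results of these data known, and a gene was read where a transcript cluster of the array carried its symbol and no other. Of the 44 genes, 31 had such a cluster, out of 14232 genes with a cluster of their own in the whole table. Another 9 (NCL, NOP56, NOP58, DKC1, PPAN, RRN3, MYBBP1A, TSR1 and PNO1) sat only in clusters shared with other symbols, and 4 (GNL3, NHP2, WDR43 and BOP1) were not in the probe table used here. None of these 13 was read. HEATR1 alone had 2 clusters of its own, and the brighter one was taken.

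The cells were GM12878, a B-lymphoblastoid line made by Epstein-Barr virus transformation, grown in medium that held 15% serum and plated at a density of 900000 per ml. The groups were untreated cells at 0 h and cells given 10 µM D,L-sulforaphane, an isothiocyanate from cruciferous plants, for 8 h or for 24 h. Each group held 3 cultures, each on its own Affymetrix Human Exon array. The treatment protocol also mentions a 0.1% DMSO vehicle, but no vehicle array was used here. Time in culture and treatment therefore cannot be told apart in any comparison with 0 h. Between 24 h and 8 h, time in culture and length of exposure cannot be told apart either. The values were log2 RMA signals, so a difference of 1 is a doubling.

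Mean signal per array over all 22011 clusters lay between 7.97 and 8.14. Untreated replicate 2 stood apart, with an upper-quartile signal of 9.28 against 9.42 to 9.63 on the other 8 arrays. On the B-cell label, 11 B-cell marker genes had a mean signal of 11.81 to 11.92 on each array, against 6.99 to 7.27 for 10 T- and NK-cell markers, 6.43 to 6.85 for 6 myeloid markers and 6.94 to 7.13 for 10 fibroblast and epithelial markers, of which KRT8 was bright at a mean of 11.34 at 0 h. In whole cultures, less RNA per cell and fewer cells of a kind cannot be told apart.

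MYC is a transcription factor that binds the E-box with its partner MAX and is known to promote cell growth, in large part by raising the output of ribosomes. In lymphoblastoid lines its gene is known to be driven by the viral programme and to be needed for proliferation. Ribosomes begin in the nucleolus, where RNA polymerase I makes a long precursor rRNA. Small nucleolar ribonucleoproteins modify this precursor, the small-subunit processome folds and cuts it, and separate sets of factors finish the small and large subunits.

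The E-box is shown here in the promoters of the members nearest to the calling threshold, since it is the site through which MYC acts. The genes were listed as ones that MYC is known to serve. How often and where E-boxes occur among them is therefore not independent of that choice. RefSeq promoter windows (GRCh38.p14, 250 bases before to 50 after the transcript start) were found for 38 of the 44 genes. MYC, NOLC1, NOP58, RRP12, BOP1 and RRP1B had none. The E-box, searched as CACGTG, which reads the same on both strands, was in a window of 18 of the 38 genes, or 47.4%. It was in a window of 8.77% of all 27305 genes in the table, of 10.9% of the protein-coding genes and of 11.3% of the 11386 genes with both a window and an array cluster of their own. The 3 printed promoters run 280 bases, with 30 after the start, and the E-box is in capitals. They belong to NAT10, which acetylates rRNA (chr11:34105379-34105658, plus strand), UTP4 of the early processome (chr16:69132399-69132678, plus strand), and RCL1, a processome factor related to RNA cyclases (chr9:4792694-4792973, plus strand).
NAT10: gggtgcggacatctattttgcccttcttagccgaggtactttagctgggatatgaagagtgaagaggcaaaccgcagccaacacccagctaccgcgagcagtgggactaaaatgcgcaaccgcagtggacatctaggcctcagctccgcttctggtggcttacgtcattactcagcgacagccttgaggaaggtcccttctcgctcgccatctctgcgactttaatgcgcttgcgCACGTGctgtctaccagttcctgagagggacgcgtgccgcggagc
UTP4: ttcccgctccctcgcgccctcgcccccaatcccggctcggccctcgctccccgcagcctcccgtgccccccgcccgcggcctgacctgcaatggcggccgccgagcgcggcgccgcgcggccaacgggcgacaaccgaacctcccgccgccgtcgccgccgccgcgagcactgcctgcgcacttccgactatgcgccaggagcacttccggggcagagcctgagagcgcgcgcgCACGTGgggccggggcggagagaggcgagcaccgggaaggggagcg
RCL1: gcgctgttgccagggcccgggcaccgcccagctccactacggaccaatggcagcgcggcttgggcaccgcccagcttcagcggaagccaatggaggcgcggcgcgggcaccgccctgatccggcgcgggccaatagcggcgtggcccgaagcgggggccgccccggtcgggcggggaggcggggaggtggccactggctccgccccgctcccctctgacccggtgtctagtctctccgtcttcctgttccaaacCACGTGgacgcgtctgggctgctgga
In these promoters the E-box began at position -15 for NAT10, -16 for UTP4 and 5 for RCL1, counting from the transcript start. Of the 19 E-boxes in the genes' windows, 16 began no more than 30 bases before the start or after it. Among the 2821 E-boxes in all windows, 24.9% did so. A match in letters is not evidence that MYC binds there in these cells.

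**Figure D1:**
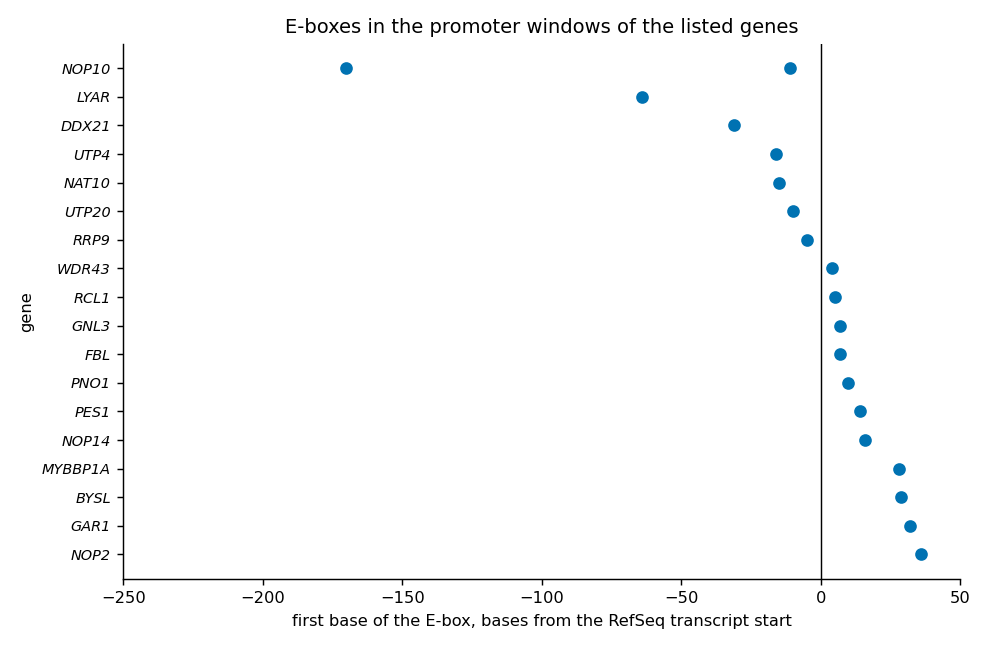
Position of each E-box in the promoter windows of the 18 genes that hold one, in bases from the RefSeq transcript start (vertical line). Each point is the first base of 1 E-box. Most points lie close to the start, and the 3 that began more than 30 bases before it are in NOP10 (-170), LYAR (-64) and DDX21 (-31).

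The first comparison set cells after 8 h of sulforaphane against untreated cells at 0 h. None of the 31 was called at 8 h against 0 h with limma at an adjusted p below 0.05, where 0.595% of all clusters were called. At an unadjusted p below 0.05, 1 was higher and 8 were lower, where 8.55% of all clusters were higher and 6.57% lower. Over the genes with a cluster of their own the shares at that p were 5.68% and 8.13%. MYC itself was the gene nearest to a call and stood on the other side from most of the assembly genes. The median change of the 31 was -0.14, against -0.012 over all clusters and -0.038 over the 14232 genes with a cluster of their own. Of the 31, 23 were below 0, or 74.2%, against 53% of all clusters and 60.9% of those genes.

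MYC (cluster 3115504) had signals of 11.45, 11.15 and 11.55 at 0 h, 11.97, 12.00 and 11.79 at 8 h, and 11.80, 11.62 and 11.76 at 24 h. All 3 arrays at 8 h and all 3 at 24 h lay above the 3 untreated arrays, and those of 8 h and 24 h overlapped at the edge. The mean was 11.92 ± 0.11 at 8 h and 11.38 ± 0.21 at 0 h (SD, n = 3 each). The change was 0.54 ± 0.11 (SE), or 1.45-fold, with a 95% interval of 0.28 to 0.80 and an adjusted p of 0.0804. At 24 h the mean was 11.73 ± 0.10, a change against 0 h of 0.34 ± 0.11 (95% interval 0.083 to 0.61, adjusted p = 0.17). The 24 h arrays were lower than the 8 h arrays by a change of -0.20 ± 0.11 (95% interval -0.46 to 0.065, adjusted p = 0.615).

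Leaving out any 1 of the 9 arrays did not bring the MYC difference at 8 h past the threshold. With untreated replicate 1 left out it was 0.57, with replicate 2 left out 0.42 and with replicate 3 left out 0.62, and the adjusted p over the 9 fits ran from 0.0662 to 0.248. The call did turn on scaling and weighting. After quantile normalization MYC was called at 8 h (0.48, adjusted p = 0.0417), where 1.77% of all clusters were called. With array weights it was called at both times against 0 h, but that fit called 43.6% of all clusters at 8 h and 40.9% at 24 h. With weights fitted gene by gene MYC was called at 8 h (adjusted p = 0.0284), where 7.74% of all clusters were, and not at 24 h (adjusted p = 0.112).

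**Figure D2:**
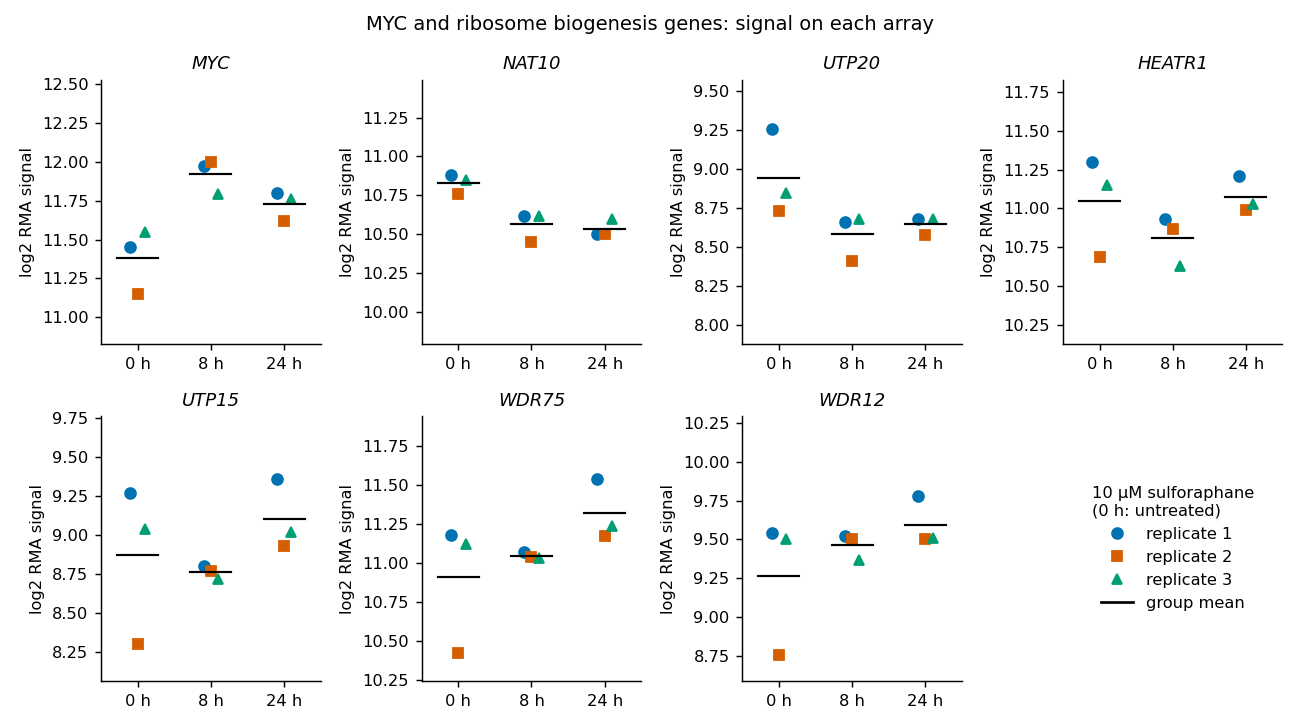
Log2 RMA signal of 7 genes on each array at 0 h (untreated), 8 h and 24 h of 10 µM sulforaphane. Symbols and colours mark the replicate number, bars are group means, and each panel spans the same log2 range. In MYC the treated arrays all lie above the untreated ones, in NAT10 and UTP20 all below, and in UTP15, WDR75 and WDR12 untreated replicate 2 lies far below the rest.

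Of the other growth regulators, PA2G4, a ribosome-binding protein linked to proliferation, was at 14.24 ± 0.07 at 0 h, 14.03 ± 0.19 at 8 h and 14.06 ± 0.09 at 24 h. Its changes were -0.21 at 8 h and -0.18 at 24 h against 0 h. Its 24 h arrays lay below all untreated arrays. LYAR, a nucleolar zinc-finger protein, changed by -0.052 at 8 h and by 0.18 at 24 h against 0 h, with a standard error of 0.19 in each case. Neither passed the test at either time.

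The RNA polymerase I subunits lay close to 0 at 8 h. POLR1A, the largest subunit, changed by 0.036 ± 0.13, POLR1B, the next largest, by 0.043 ± 0.19, and POLR1C, which is shared with RNA polymerase III, by 0.030 ± 0.12. At 24 h against 0 h the changes were 0.064, 0.26 and 0.23 in the same order, and none passed the test. Without untreated replicate 2 these 24 h values were -0.075, 0.021 and 0.089, and those of 8 h were -0.103, -0.192 and -0.109. POLR1B had signals of 9.79, 9.06 and 9.74 at 0 h, 9.65, 9.54 and 9.52 at 8 h, and 10.02, 9.62 and 9.71 at 24 h. The untreated arrays overlapped both treated groups, with untreated replicate 2 the lowest of the 9 arrays.

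Among abundant nucleolar proteins, NOLC1, a chaperone of small nucleolar ribonucleoproteins, changed by -0.071 at 8 h and -0.062 at 24 h against 0 h. DDX21, an RNA helicase of precursor rRNA, changed by -0.15 and -0.18, and its 24 h arrays lay below all untreated arrays. The cluster that carries NPM1 alone, the gene of nucleophosmin, was dim on every array, at 3.92 to 4.65, and fell in the dimmest 25% of clusters. Its changes of -0.003 at 8 h and -0.10 at 24 h come from a signal near the floor of the array, and 2 further clusters carried its symbol beside others.

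None of the 3 genes read of the modification machinery passed the test. FBL, the methyltransferase of box C/D particles, was at 12.59 ± 0.05 at 0 h, 12.52 ± 0.10 at 8 h and 12.55 ± 0.05 at 24 h. Its changes against 0 h had 95% intervals of -0.23 to 0.090 at 8 h and -0.20 to 0.12 at 24 h. Of the box H/ACA particles, which make pseudouridine, GAR1 changed by -0.14 at 8 h and 0.057 at 24 h, and NOP10 by 0.007 and 0.10.

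The early small-subunit processome had the lowest median at 8 h among the roles, close to that of late small-subunit maturation (-0.20 over 3 genes). Of its 10 genes read, 9 were below 0 at 8 h, with a median of -0.22, and 5 of the 10 were lower at an unadjusted p below 0.05. Over all clusters 53% were below 0 and 6.57% lower at that p. Over the genes with a cluster of their own the shares were 60.9% and 8.13%. The 5 were NAT10, UTP4, RCL1, UTP20 and RRP9, a protein of the box C/D particle that docks on the processome. None passed after adjustment.

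NAT10 had signals of 10.88, 10.76 and 10.85 at 0 h, 10.62, 10.45 and 10.62 at 8 h, and 10.50, 10.50 and 10.60 at 24 h. Every treated array lay below every untreated one. The change was -0.26 ± 0.07 at 8 h (95% interval -0.43 to -0.10, adjusted p = 0.144) and -0.29 ± 0.07 at 24 h (95% interval -0.46 to -0.13, adjusted p = 0.0927), a signal 0.815 of the untreated one. At 24 h NAT10 was called after each array was centred on its median (-0.36, adjusted p = 0.0358), where 2.32% of all clusters were called. It was also called after quantile normalization (-0.39, adjusted p = 0.0232), where 2.54% were.

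UTP20, a large scaffold protein of the processome, had the lowest change of the 31 at 8 h. Its signals were 9.26, 8.73 and 8.85 at 0 h, 8.66, 8.41 and 8.68 at 8 h, and 8.68, 8.58 and 8.68 at 24 h. The treated arrays lay below the untreated ones, among which replicate 1 was high. The change was -0.36 ± 0.14 at 8 h (adjusted p = 0.276) and -0.30 ± 0.14 at 24 h (adjusted p = 0.266). Without untreated replicate 1 the 8 h change was -0.20.

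UTP4 was at 11.59 ± 0.12 at 8 h and 11.81 ± 0.02 at 0 h (SD, n = 3 each), a change of -0.22 ± 0.07 (adjusted p = 0.183). At 24 h its 3 arrays shared the value 11.71. RCL1 was at 9.47 ± 0.11 at 8 h and 9.71 ± 0.11 at 0 h, a change of -0.24 ± 0.08 (adjusted p = 0.214), and its arrays at 24 h overlapped the untreated ones. Of the processome genes without such separation, NOP14 changed by -0.21 and the helicase DDX10 by -0.14 at 8 h.

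HEATR1, UTP15 and WDR75 belong with UTP4 to the part of the processome that binds precursor rRNA first and also aids its transcription. HEATR1 had signals of 11.30, 10.69 and 11.15 at 0 h, 10.93, 10.87 and 10.63 at 8 h, and 11.21, 10.99 and 11.03 at 24 h. UTP15 had 9.27, 8.30 and 9.04 at 0 h, 8.80, 8.77 and 8.72 at 8 h, and 9.36, 8.93 and 9.02 at 24 h. WDR75 had 11.18, 10.42 and 11.12 at 0 h, 11.07, 11.04 and 11.03 at 8 h, and 11.54, 11.17 and 11.24 at 24 h. In each of the 3 genes untreated replicate 2 was far below the other untreated arrays and the 24 h arrays lay above the 8 h arrays.

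The untreated groups of these genes therefore overlapped both treated groups, apart from that split between 24 h and 8 h. WDR75 changed by 0.14 ± 0.20 at 8 h and by 0.41 ± 0.20 at 24 h against 0 h (adjusted p = 0.275 at 24 h). The 24 h value was the highest of the 31 with all arrays, and without untreated replicate 2 it was 0.165, below NOB1 at 0.232 and MYC at 0.227. UTP15 changed by 0.34 ± 0.23 at 24 h against 8 h (adjusted p = 0.664). HEATR1 changed by -0.24 ± 0.16 at 8 h, and its other cluster by -0.27 ± 0.15.

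In late small-subunit maturation, RRP12, a factor of nuclear export and cleavage, was at 9.22 ± 0.06 at 8 h and 9.44 ± 0.04 at 0 h (SD, n = 3 each). Its change was -0.22 ± 0.06 (adjusted p = 0.122), with the treated arrays of both times below the untreated ones. BYSL, needed for the last steps of the small subunit, changed by -0.20 ± 0.12. NOB1, the nuclease that makes the final cut of the small-subunit rRNA, lay on the other side at 0.13 ± 0.15 at 8 h and 0.25 ± 0.15 at 24 h, where its 3 arrays were above the untreated ones.

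Of the large-subunit factors, NOP2, an rRNA methyltransferase, changed by -0.19 ± 0.08 and NIP7, a factor of precursor processing, by -0.20 ± 0.09 at 8 h, both with 8 h arrays below all untreated ones. Their adjusted p-values were 0.316 and 0.33. RRP1B changed by -0.15 and NOP16 by -0.008. PES1 and WDR12 act in a common complex with BOP1. PES1 changed by -0.015 ± 0.062 at 8 h, while WDR12 had signals of 9.54, 8.76 and 9.50 at 0 h, 9.52, 9.50 and 9.37 at 8 h, and 9.78, 9.50 and 9.51 at 24 h. In WDR12 untreated replicate 2 was again far below all other arrays, and its change of 0.20 ± 0.20 at 8 h and 0.33 ± 0.20 at 24 h rested on that array: without it the values were -0.054 and 0.079.

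**Figure D3:**
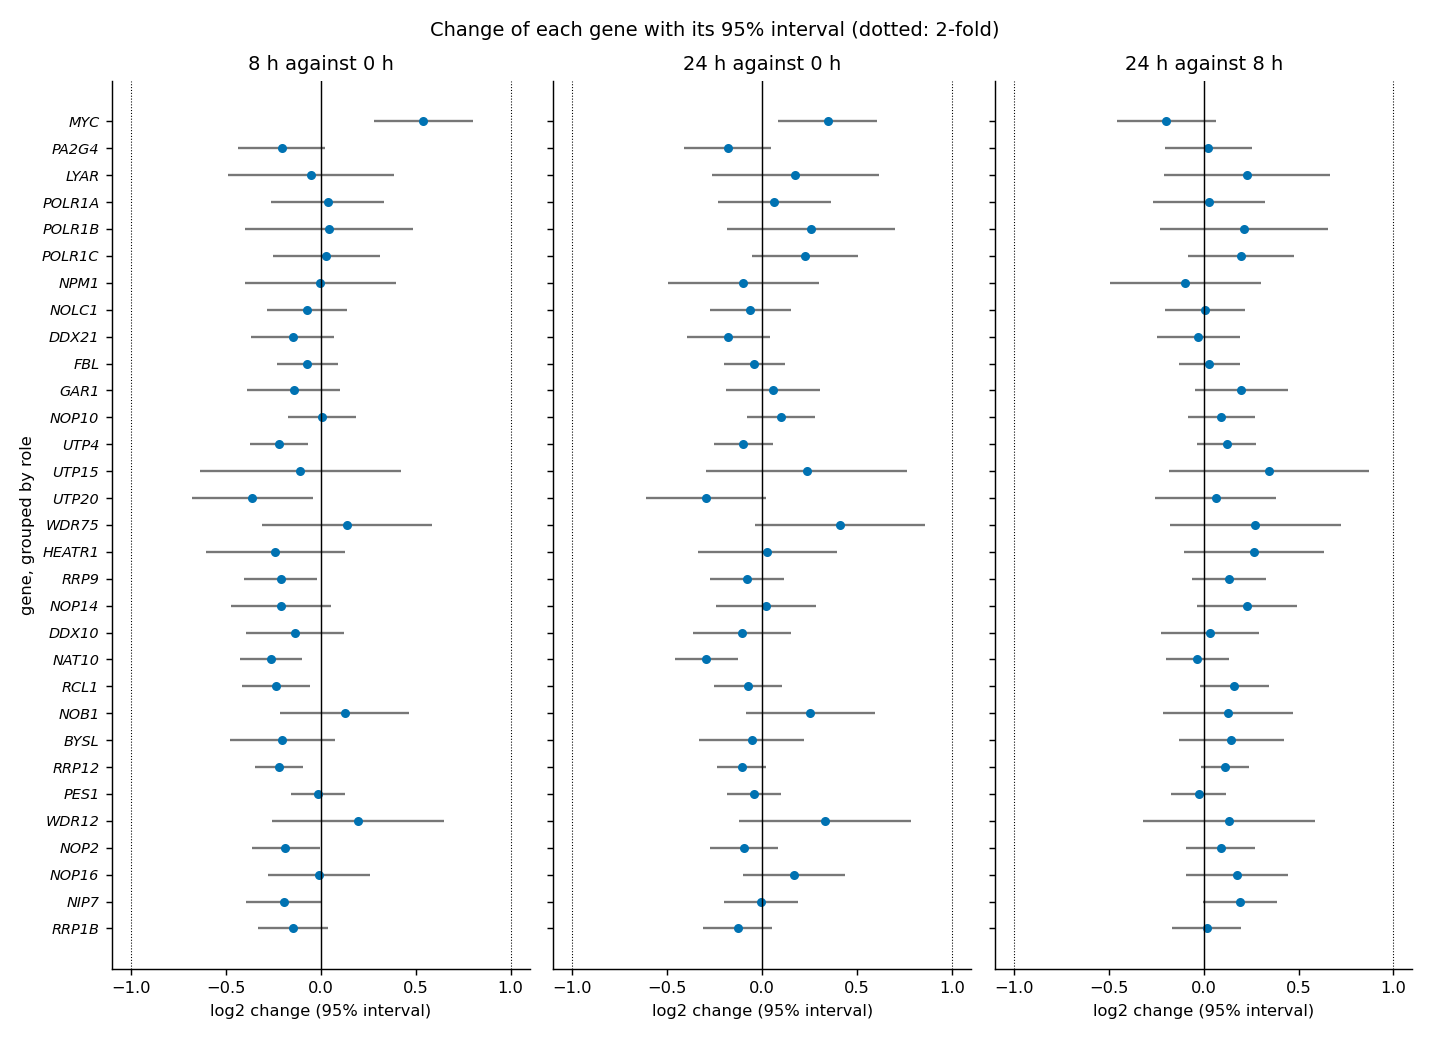
Log2 change of each of the 31 genes (points) with its 95% interval (lines) in the 3 comparisons between time points, one per panel, with genes grouped by role. The solid line marks no change and the dotted lines a doubling or halving. All intervals lie within the dotted lines, and MYC stands to the right at 8 h while most assembly genes lie to the left of 0.

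The second comparison set cells after 24 h of sulforaphane against untreated cells at 0 h. None of the 31 was called with limma, where 1.62% of all clusters were called. At an unadjusted p below 0.05, 1 was higher (MYC) and 1 lower (NAT10), where 13.9% of all clusters were higher and 6.45% lower. Over the genes with a cluster of their own the shares at that p were 13.1% and 7.62%. The median change was -0.041, against 0.017 over all clusters and -0.010 over the genes with a cluster of their own. Of the 31, 17 were below 0, or 54.8%, against 46.9% of all clusters and 52.2% of those genes. Between 24 h and 8 h none was called either, where 0.327% of all clusters were called. At an unadjusted p below 0.05, 0 were higher or lower, where 6.91% of all clusters were higher and 3.45% lower. Over the genes with a cluster of their own these shares were 7.91% and 2.95%. The median was 0.12, against 0.024 over all clusters and 0.030 over the genes with a cluster of their own. Of the 31, 26 were above 0, or 83.9%, against 57.8% of all clusters and 61.2% of those genes. MYC was among the 5 genes that were lower.

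Counts of genes whose groups did not overlap were read against all clusters in the same way. At 8 h against 0 h, 1 gene was higher (MYC), where 9.06% of all clusters were, and 7 were lower (UTP4, UTP20, NAT10, RCL1, RRP12, NOP2 and NIP7), or 22.6%, where 8.55% of all clusters were. At 24 h against 0 h, 2 were higher (MYC and NOB1), where 15.6% of all clusters were, and 7 were lower (PA2G4, DDX21, UTP4, UTP20, NAT10, RRP12 and NOP2), where 8.75% of all clusters were. The 2 comparisons share the untreated arrays. At 24 h against 8 h, 9 were higher, or 29.0%, where 15.2% of all clusters were, and 0 were lower, where 6.4% were. Over the genes with a cluster of their own, 6.58% were higher without overlap and 10.3% lower at 8 h, and 15.2% and 10.5% at 24 h. At 24 h against 8 h these shares were 17.6% and 5.63%. The counts describe the genes listed and carry no test.

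Each 95% interval bounds the change of 1 signal taken alone and is not adjusted for the number of genes. For NPM1, whose signal lay near the floor of the array, it says little about the RNA. In each of the 3 comparisons, the 95% interval of every 1 of the 31 genes lay inside a 2-fold change in either direction. It lay inside a 1.5-fold change for 25 genes at 8 h and for 23 at 24 h, each set against 0 h, and for 25 between the treated times. Against 0 h the most distant bounds were -0.68 for UTP20 and 0.80 for MYC at 8 h, and -0.61 for UTP20 and 0.86 for WDR75 at 24 h. At 24 h against 8 h they were -0.495 for NPM1 and 0.873 for UTP15.

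The spread among the untreated arrays varied from gene to gene. In genes such as UTP15, WDR75 and WDR12 the untreated standard deviation exceeded the 8 h change, and in others such as NAT10, UTP4 and RRP12 it was smaller. The median standard deviation of the 31 genes was 0.161 at 0 h, 0.109 at 8 h and 0.085 at 24 h, against 0.150, 0.091 and 0.092 over all clusters. Untreated replicate 2 was the lowest of the 3 untreated arrays in 21 of the 31 genes, or 67.7%, against 44.9% of all clusters. In 6 genes, LYAR, POLR1B, UTP15, WDR75, HEATR1 and WDR12, it was more than 0.5 below the mean of the other untreated arrays. That share was 19.4%, against 14.8% of all clusters.

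The median of the 31 genes at 8 h stayed below 0 without each untreated array, but its size did not hold. With untreated replicate 1 left out it was -0.056 (18 of 31 below 0), against -0.012 over all clusters. In that fit 5934 of 10250 single-symbol clusters without an E-box and 733 of 1297 with one were below 0. Those shares were close to that of the 31 genes. The median of the 31 was -0.19 with replicate 2 left out (28 of 31 below 0), against -0.016 over all clusters. There 6250 of 10250 single-symbol clusters without an E-box and 838 of 1297 with one were below 0. With replicate 3 left out the median of the 31 was -0.088 (21 of 31 below 0), against -0.001 over all clusters. There 5719 of 10250 single-symbol clusters without an E-box and 710 of 1297 with one were below 0. The number of the 31 lower at an unadjusted p below 0.05 was 3, 10 and 5 in the same order, against 8 with all arrays. With all arrays 6.57% of all clusters and 8.13% of the genes with a cluster of their own were lower at that p. Those shares are not given here for the fits without 1 array. None of the 31 was called in any of the 9 fits that left out 1 array. At 24 h the median was 0.023, -0.081 and -0.016 without untreated replicates 1, 2 and 3, so its sign depended on the untreated arrays used.

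**Figure D4:**
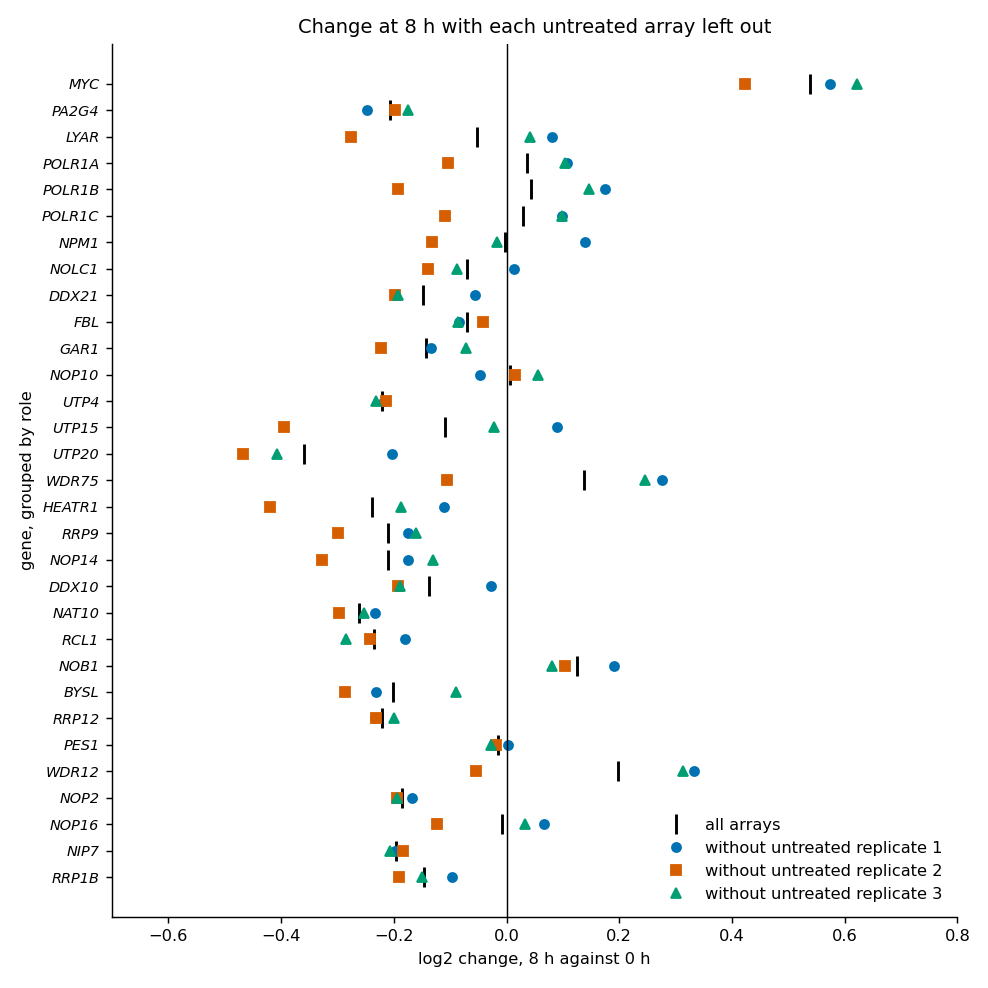
Log2 change at 8 h against 0 h for each of the 31 genes with all arrays (bars) and with each untreated array left out (symbols). Leaving out untreated replicate 2 moves LYAR, POLR1B, UTP15, WDR75, HEATR1 and WDR12 to the left, while NAT10, UTP4, RRP12, NOP2 and NIP7 hardly move.

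Genes with and without an E-box were set side by side after their values had been seen. At 8 h against 0 h, 13 of 14 genes with an E-box in the window were below 0 with a median of -0.19, and 7 of 13 without one were below 0 with a median of -0.003. Over all single-symbol clusters with a window the medians were -0.030 for 1297 with an E-box (759 below 0) and -0.032 for 10250 without one (6066 below 0). Untreated replicate 2 moved with this split: its median deviation from the other untreated arrays was -0.128 in the 14 genes and -0.415 in the 13. Without that array the medians were -0.23 with an E-box and -0.13 without one, and 13 of 14 and 12 of 13 genes were below 0. With untreated replicate 1 left out they were -0.17 and 0.099, and with replicate 3 left out -0.15 and 0.033. In the comparison of 24 h with 0 h they were -0.065 (10 of 14 below 0) and 0.17 (4 of 13 below 0) with all arrays. Over the single-symbol clusters they were 0.016 (606 of 1297 below 0) and -0.004 (5215 of 10250 below 0). For the listed genes at 24 h they were -0.049 and 0.242 without untreated replicate 1, and -0.057 and 0.208 without replicate 3. Without replicate 2 they were -0.096 (13 of 14 below 0) and 0.008 (6 of 13 below 0). The part of untreated replicate 2 in the split was not tested.

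Other genes of the pathway were read from lists that were also drawn up with earlier results known. Of 82 other ribosome assembly factors, 68 were read and 0 were called in any of the 3 comparisons with limma. Their medians were -0.034 at 8 h and 0.037 at 24 h against 0 h, and 0.11 at 24 h against 8 h. In that last comparison 54 of 68 were above 0, against 57.8% of all clusters and 61.2% of the genes with a cluster of their own. At an unadjusted p below 0.05, 0 were higher and 7 lower (10.3%) at 8 h, where 8.55% of all clusters were higher and 6.57% lower. At 24 h 2 were higher (2.94%) and 5 lower (7.35%), where 13.9% and 6.45% of all clusters were. At 24 h against 8 h 6 were higher (8.82%) and 0 lower, where 6.91% and 3.45% of all clusters were. None of 13 other RNA polymerase I genes or 16 genes of RNA polymerase III and 5S transcription was called with limma. At an unadjusted p below 0.05, the other RNA polymerase I genes had 1 higher at 8 h, 0 at 24 h against 0 h and 2 higher at 24 h against 8 h, with 0 lower in each. The RNA polymerase III list had 0 higher and 3 lower at 8 h, 3 higher and 2 lower at 24 h, and 1 higher and 0 lower at 24 h against 8 h. The shares of all clusters just given apply to these lists as well. Over the genes with a cluster of their own, 5.68% were higher and 8.13% lower at 8 h. At 24 h the shares of those genes were 13.1% and 7.62%, and at 24 h against 8 h 7.91% and 2.95%. Both sets of shares apply to every gene list read here.

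Among 18 MYC network genes, 1 passed, at 24 h against 0 h and against 8 h. In those comparisons 1.62% and 0.327% of all clusters were called. AURKA, a mitotic kinase that also stabilises MYC proteins, had signals of 9.23, 9.13 and 9.17 at 0 h, 9.42, 9.28 and 9.40 at 8 h, and 8.53, 8.40 and 8.43 at 24 h. It fell by 0.73 ± 0.066 at 24 h against 0 h (adjusted p = 0.00543) and by 0.91 ± 0.066 against 8 h (adjusted p = 0.00347), and passed in all 9 fits without 1 array. The rest of the network genes read did not pass. At an unadjusted p below 0.05, 2 of the 18 were higher and 2 lower at 8 h, and 4 and 2 at 24 h. At 24 h against 8 h 3 were higher and 2 lower. Of 30 MYC targets outside ribosome assembly, 0 were called at 8 h, with 0 higher and 11 lower at an unadjusted p below 0.05, where 8.55% of all clusters were higher and 6.57% lower. Their median was -0.16, and 23 were below 0, where 53% of all clusters and 60.9% of the genes with a cluster of their own were. At 24 h 1 was higher and 8 were lower at that p, where 13.9% of all clusters were higher and 6.45% lower. At that time 20 were below 0, where 46.9% of all clusters and 52.2% of the genes with a cluster of their own were.

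After adjustment 1 of these 30 fell at 24 h, where 1.62% of all clusters were called. It was SLC7A5, an importer of large neutral amino acids. It had signals of 9.55, 9.63 and 9.64 at 0 h, 9.69, 9.51 and 9.67 at 8 h, and 9.14, 9.20 and 9.30 at 24 h. Its change was -0.39 ± 0.073 (adjusted p = 0.0452), and it passed in 2 of the 9 fits without 1 array. Of 13 RNA exosome genes, which trim precursor rRNA, EXOSC2 fell at 8 h, where 0.595% of all clusters were called. It had signals of 10.94, 11.02 and 11.02 at 0 h, 10.65, 10.65 and 10.68 at 8 h, and 10.80, 10.82 and 10.80 at 24 h. Its change was -0.34 ± 0.052 (adjusted p = 0.0387), and it too passed in 2 of the 9 fits. Of the cell type markers, the kinase BLK, of the B-cell list, rose by 0.44 ± 0.077 at 24 h (adjusted p = 0.0381) and passed in 0 of the 9 fits. It was called among 11 B-cell markers read, where 1.62% of all clusters were called. BLK had signals of 9.47, 9.43 and 9.56 at 0 h, 9.79, 9.74 and 9.70 at 8 h, and 10.07, 9.81 and 9.91 at 24 h.

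The clusters that carry a listed symbol beside other symbols, many of them small nucleolar RNAs encoded in introns of the host gene, were counted without naming a gene. There were 15, and 0 were called in any comparison with limma. At an unadjusted p below 0.05, 1 was higher and 2 lower at 8 h, 2 higher and 3 lower at 24 h, and 0 differed between 24 h and 8 h. Over all clusters 8.55% were higher and 6.57% lower at 8 h, 13.9% and 6.45% at 24 h, and 6.91% and 3.45% between 24 h and 8 h.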

How the data were processed

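The 44 genes, the other lists and the tests were chosen with earlier results of these data known. Per the series design text, the authors hybridised total RNA to Affymetrix Human Exon 1.0 ST arrays and summarised core transcript clusters with gene-level RMA and sketch-quantile normalization in Affymetrix Expression Console. Software versions, annotation release and build: not given in the sources used here. What the authors deposited is a log2 RMA signal for each cluster on each array, with no counts, so the number of arrays limits the precision.

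The deposited log2 values of all 22011 clusters went into 1 limma model (limma 3.58.1, R 4.3.3) with 1 mean per group, no covariate and eBayes. Tests were two-sided. The Benjamini-Hochberg adjustment took in every cluster of a comparison, and calls needed an adjusted p below 0.05. Intervals are unadjusted 95% intervals from the same fit. Gene symbols came from the platform annotation: 14432 clusters had 1 symbol, 2408 several and 5171 none.

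By rule, values on every array are given for MYC, for any of the 31 genes called and for the 3 with the largest absolute change in each comparison, and called genes of the other lists are named. POLR1B on every array, and other genes named, were chosen after their values were seen. The rule for sequences took the 4 genes off chromosome 8 with the smallest p; RRP12 was the one without a window. The workflow was tested on simulated data. Alternatives tried are in the closing section.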

Additional observations from a re-analysis of the deposited data

How the results depend on the processing

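With limma 0 of the 31 genes were called in any of the 3 comparisons. The count stayed at 0 without the dimmest 25% of clusters (30 genes left), with trended and robust eBayes, with fits of only the 2 groups compared, with clusters of a symbol averaged, at a threshold of 0.01, with the 15 shared clusters added, and without each array in turn. At 8 h it was 1 after quantile normalization (MYC, with 1.77% of all clusters called), 14 with array weights, and 5 with array weights fitted gene by gene (7.74%). At 24 h against 0 h it was 1 after quantile normalization (2.54%), 1 after centring arrays on their medians (2.32%), 9 with array weights and 1 with weights fitted gene by gene (8.58%). Array weights gave untreated replicate 3 a weight of 29.8 and replicate 2 of 0.136, did not converge, and called 43.6% of all clusters at 8 h and 40.9% at 24 h. MYC at 8 h was 0.48 after quantile normalization, 0.385 with array weights (adjusted p = 0.000991) and 0.403 with weights fitted gene by gene (adjusted p = 0.0284), and at 24 h 0.191 with array weights (0.0267). Without 1 array MYC ranged from 0.423 to 0.622 at 8 h and from 0.227 to 0.426 at 24 h.

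With the replicate block 0 genes were called in each comparison, and MYC had adjusted p-values of 0.101 at 8 h, 0.138 at 24 h and 0.52 between 24 h and 8 h. SLC7A5 (adjusted p = 0.0594), EXOSC2 (0.0703) and BLK (0.0507) missed the threshold with the block. In fits of only the 2 groups compared SLC7A5 (0.107), EXOSC2 (0.186) and BLK (0.129) missed it, after quantile normalization EXOSC2 (0.0606) and BLK (0.0851) did, and at a threshold of 0.01 all 3 did. With 3 arrays per group, pairing by number is open. Of 9 same-numbered pairs 3 had correlations of deviations above 0.1 (all -0.137 to 0.394). Arrays matched their own number best in 8 of 18 looks at another group.

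Signs changed among genes given on every array. At 8 h POLR1B (0.043 with all arrays) was between -0.192 and -0.009 under both kinds of array weights, quantile normalization and without untreated replicate 2. WDR75 was -0.062 with array weights, -0.048 with weights fitted gene by gene and -0.106 without untreated replicate 2. WDR12 was -0.016, -0.009 and -0.054 under the same 3 settings, and UTP15 was 0.089 without untreated replicate 1. Without 1 array, UTP15 ranged from -0.394 to 0.089, WDR75 from -0.106 to 0.275 and WDR12 from -0.054 to 0.333. At 24 h against 0 h HEATR1 was -0.101 with array weights, -0.116 with weights fitted gene by gene, -0.036 with centring, -0.047 after quantile normalization, -0.038 without 24 h replicate 1 and -0.152 without untreated replicate 2. UTP15 was -0.008 with weights fitted gene by gene and -0.05 without untreated replicate 2. Without 1 array the ranges were -0.05 to 0.432 for UTP15 and -0.152 to 0.155 for HEATR1. UTP20 at 24 h against 8 h was -0.001 after quantile normalization and -0.022 without 8 h replicate 2, in a range of -0.022 to 0.11 without 1 array. The cause of these changes was not tested. Over the 30 genes other than MYC, 1563 values under an alternative kept sign and side of the threshold, 117 changed sign and 28 passed it, of which 1 (NOP14 at 24 h with array weights) did both. Those that passed were all under array weights of either kind, centring or quantile normalization. Weights fitted gene by gene and the added clusters were chosen after seeing the data.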

Other observations

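Ribosomal protein genes, whose products the assembly factors place on the rRNA, were also read. Of 79 cytosolic ribosomal protein genes, 26 had a cluster of their own, and their signals are uncertain because many have processed pseudogenes. With limma 0 of the 26 were called in any comparison. Their medians were -0.025 at 8 h and 0.073 at 24 h against 0 h. At an unadjusted p below 0.05, 2 were higher and 2 lower at 8 h, 4 higher and 3 lower at 24 h, and 4 higher and 0 lower at 24 h against 8 h. Over all clusters 8.55% were higher and 6.57% lower at 8 h, 13.9% and 6.45% at 24 h, and 6.91% and 3.45% at 24 h against 8 h.

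Of 77 mitochondrial ribosomal protein genes, 64 were read and 0 were called with limma in any comparison. Their median was -0.065 at 8 h against 0 h. Of the 64, 43 were below 0, against 53% of all clusters and 60.9% of the genes with a cluster of their own. There were 0 higher and 12 lower at an unadjusted p below 0.05, where 8.55% of all clusters were higher and 6.57% lower. Over the genes with a cluster of their own the shares at that p were 5.68% and 8.13%. At 24 h against 0 h the median was 0.035, with 7 higher and 5 lower, where 13.9% of all clusters were higher and 6.45% lower. At 24 h against 8 h the median was 0.13. Of the 64, 52 were above 0, against 57.8% of all clusters and 61.2% of the genes with a cluster of their own. There 6 were higher and 1 lower, where 6.91% of all clusters were higher and 3.45% lower.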
